A study of Mus musculus with 3 samples.

Results

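The 10 genes described here encode the subunits of the hypoxia-inducible factors (HIF), the oxygen-dependent hydroxylases that act on them and the ubiquitin ligase subunit Vhl. They were taken by name from 19938 genes that had a probeset of their own on the Mouse Gene 1.0 ST array of Affymetrix, and each of the 10 had 1 such probeset. The array was run on GFP-positive endothelial cells in 3 samples, called replicates 1, 2 and 3, which form 1 group. For each, 1 kidney was used, and the adult mice, whose sex was unknown, carried the Tie2-GFP transgene Tg(TIE2GFP)287Sato on a mixed background, mostly CD-1. The cells were sorted from renal cortex after the medulla was removed, digested with 1% collagenase A for 5 min and trypsin for 5 min, and freed of glomeruli on a 40 µm mesh. The Tie2 promoter drives GFP in endothelium, and the sort rested on this reporter. The labels name no treatment and no hypoxia. With 1 group, there was no second condition to compare, so the question put to each gene was whether its signal lay above or below 100. This is the raw expression level of the study's filter, which asked for it in 3 samples. Here it is the limit of a test on the deposited values, whose scale may differ from that of the filter.

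In the oxygen response, an alpha subunit (Hif1a, Epas1 or Hif3a) joins a beta subunit (Arnt or Arnt2), and the pair binds DNA at genes of hypoxia. While oxygen is present, the prolyl hydroxylases Egln1, Egln2 and Egln3 modify the alpha subunit, which is then bound by Vhl and degraded, and the asparaginyl hydroxylase Hif1an keeps it from binding coactivators. Much of this control acts on the protein, whereas the array measures mRNA. Epas1, also known as HIF2A, is known for its expression in endothelium, and in kidney it also acts in the interstitial cells that make erythropoietin.

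The core of the DNA element that HIF binds can be read in the promoters of some of these genes, and the stretches are shown because the family includes genes known to be induced by HIF itself. RefSeq promoter windows (GRCm38.p6) were held for 9 of the 10 genes, with 2 windows for Egln2 and none for Epas1. The 250 bases before each start were searched on both strands for ACGTG and for GCGTG. The first lay in 4 of the 10 windows, against 16.6% of 32851 windows of this length, and either motif lay in 7, against 38.6%. The genes with ACGTG were Hif1a and all 3 prolyl hydroxylases. Each stretch below is read along the strand of the gene, with the motif in capitals.
Egln1, chr8:124949308-124949332, minus strand: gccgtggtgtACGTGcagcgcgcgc
Egln2, chr7:27166836-27166860, minus strand: cctcctgtcaACGTGcggttcgcgc
Egln3, chr12:54204089-54204113, minus strand: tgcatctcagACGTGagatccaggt
Hif1a, chr12:73907787-73907811, plus strand: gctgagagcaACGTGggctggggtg
Hif1a, chr12:73907723-73907747, plus strand: acagacaagcACGTGagcggggcag
The motif began 68 bases before the start in Egln1, 48 in Egln2 and 229 in Egln3, and 70 and 134 in Hif1a. The farther of the Hif1a matches overlaps CACGTG, which other basic helix-loop-helix factors bind and which 6.02% of all windows hold. That match reads ACGTG on both strands. Hif3a and Arnt held only GCGTG, and neither motif was found in the windows of Arnt2, Vhl and Hif1an. A match is a string of letters in the reference and says nothing of binding in these cells.

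The deposited values are log2 signals, summarised per probeset and normalized between arrays by the authors. The median over 35557 probesets was 5.66 to 5.70 in the 3 samples, Pearson's r between samples was 0.941 to 0.950 (across probesets, which do not count as independent replicates), and between 10236 and 10601 probesets reached a signal of 100. In 40.5% of the probesets all 3 samples held the same value to 5 decimals, in 23.5% a pair did, and in 36.0% the values differed. Among the 10 genes, 2 had 3 equal values, 6 had an equal pair and 2 had 3 different values, so the SD given for 8 of them rests on repeated values and may understate the spread between samples. The test was limma's moderated one-sample test against 100 (log2 of 6.64), one-sided above and one-sided below, and the p-values of all 35557 probesets were adjusted by Benjamini-Hochberg, with 0.05 as the threshold. The labels do not say that the kidneys came from different animals, though the study describes its biological samples as independent, and the p-values measure the spread between these samples. Arrays have no read depth, and their number limits the precision.

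Of the 12 endothelial markers examined, 11 were above 100, with summed signals of 11017, 11627 and 9054 in replicates 1, 2 and 3. Over all genes, 22.9% were above 100 and 65.0% below. Cdh5, the adhesion molecule of endothelial junctions, was among the markers above, at a log2 signal of 10.62 in each sample. The sorted cells also carried tubular RNA. The study itself reported a proximal tubule profile in its cortical endothelial cells, which it took for a minor contamination. Proximal tubule markers were above 100 for 10 of 12, with summed signals of 22417, 19315 and 19892 in replicates 1, 2 and 3, and markers of the thick ascending limb for 3 of 6, with sums of 4157, 2425 and 3676. Markers of distal tubule and collecting duct were above for 3 of 8 and below for 2, with sums of 2067, 1500 and 3069. Markers of mural cells (pericytes and smooth muscle) were above for 2 of 8 and below for 2, with sums of 1759, 1766 and 3629. All 8 leukocyte markers were below 100, as were the 3 podocyte and the 2 red cell markers measured, and 4 of 6 fibroblast markers were below, with 1 above. Several of the 10 genes are also used by tubule cells, and the share of each signal that came from tubular or mural RNA was not tested. In such bulk samples, fewer cells of a type and less RNA per cell cannot be told apart.

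Of the 10 genes, 5 were above a signal of 100, 4 were below and 1 was neither. Over all 19938 genes, 22.9% were above and 65.0% below. Above were the alpha subunits Epas1 and Hif1a and the 3 prolyl hydroxylases Egln1, Egln2 and Egln3. Below were the alpha subunit Hif3a, the beta subunit Arnt2, Vhl and the asparaginyl hydroxylase Hif1an. The gene called neither was Arnt, the common beta subunit. The median log2 signal of the 10 was 7.05, beside 5.88 over all genes. Probes differ in how they bind, so the medians only describe the lists, and no gene's signal is set against that of another gene.

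**Figure D1:**
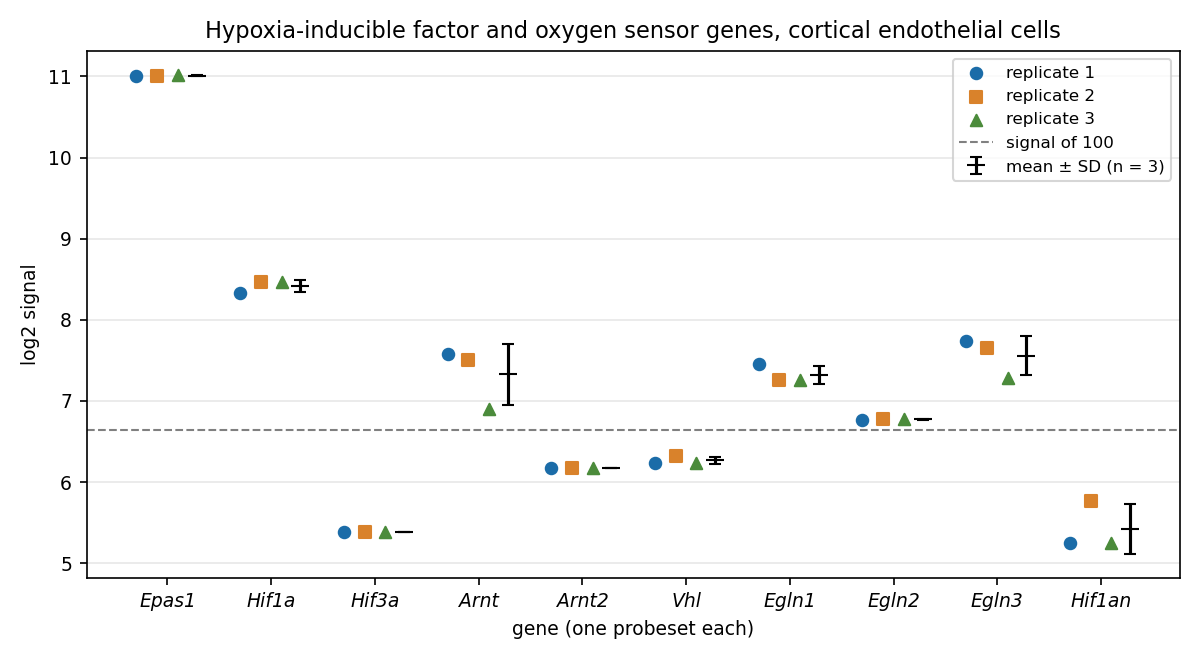
Log2 signal (y axis) of the 10 genes (x axis) in each of the 3 cortical endothelial samples (coloured points), with the mean ± SD (black, n = 3) and a dashed line at a signal of 100. Epas1 and Hif1a lie well above the line in every sample, the 3 points of Egln2 sit just over it, Hif3a, Arnt2, Vhl and Hif1an lie under it, and Arnt has 7.58 and 7.50 in replicates 1 and 2 and 6.90 in replicate 3.

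Epas1 stood at 11.00, 11.00 and 11.02 on the log2 scale in replicates 1, 2 and 3, or signals of 2055, 2055 and 2079. The values lay within 0.02 of each other, and their mean signal was 20.6 times the limit. The mean was 11.01 ± 0.01 (SD, n = 3), above 100 with an adjusted p of 3.13e-06 from limma. When every probeset with equal values was given the spread of probesets with 3 different values, the adjusted p was 0.000108.

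Hif1a, the alpha subunit that nearly all cells carry, had a log2 signal of 8.33 in replicate 1 and 8.46 in replicates 2 and 3. In signal these were 322, 352 and 352, so that replicate 1 was the lowest by a small margin. The mean of 8.42 ± 0.07 (SD, n = 3) was above 100 (limma adjusted p = 0.000997). Leaving out replicate 3 or replicate 2 left the same pair of values, 1.75 above the limit on the log2 scale. The limma adjusted p was 0.0634 without replicate 3, which loses the call, and 0.0339 without replicate 2.

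Hif3a, which has forms that oppose the other alpha subunits, was below 100. Its log2 signal was 5.38 in each sample, a signal of 41.7 (limma adjusted p = 7.71e-10, from 3 equal values). With the spread of other probesets it stayed below, with an adjusted p of 0.000856. Hif3a was therefore the only alpha subunit of the 3 not above the limit.

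Of the beta subunits, Arnt varied most among the 10 genes. In replicates 1, 2 and 3 it had log2 signals of 7.58, 7.50 and 6.90, which are signals of 192, 181 and 119. All 3 exceeded 100, but replicate 3 was 0.60 to 0.68 lower than the others on the log2 scale. The mean of 7.33 ± 0.37 (SD, n = 3) did not pass the test above 100 (limma adjusted p = 0.137). The SD of Arnt was larger than that of 81.8% of the 6127 genes whose mean signal was at least 100, for which the median SD was 0.10.

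Arnt2, the beta subunit better known from neurons, gave a log2 signal of 6.17 in each sample, or 72.1. It was below 100 (limma adjusted p = 3.12e-08, from 3 equal values). The call held with the spread of the nearest probesets by mean whose values were not all equal (adjusted p = 0.0215). It did not hold with that of probesets with 3 different values (adjusted p = 0.106).

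The prolyl hydroxylases were all above the limit, at different distances. Egln1, the main regulator of HIF stability at normal oxygen, had a log2 signal of 7.45 in replicate 1 and 7.26 in replicates 2 and 3, with signals of 175, 153 and 153. Its mean was 7.32 ± 0.11 (SD, n = 3; limma adjusted p = 0.0145). The call was lost without replicate 2 (adjusted p = 0.128) or replicate 3 (0.186), and with the spread of probesets with 3 different values (0.109).

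Egln3, the prolyl hydroxylase known to be strongly induced by hypoxia, had a log2 signal of 7.74, 7.65 and 7.28 in replicates 1, 2 and 3, or 213.5, 200.9 and 155.8. Replicate 3 was the lowest, as it was for Arnt. The mean was 7.56 ± 0.24 (SD, n = 3), above 100 (limma adjusted p = 0.0346). With any 1 sample left out it no longer passed, at an adjusted p of 0.205 without replicate 1, 0.241 without replicate 2 and 0.0699 without replicate 3.

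Egln2 lay almost at the limit. Its log2 signal was 6.76 in replicate 1 and 6.78 in replicates 2 and 3, which are signals of 109, 110 and 110. The mean of 6.77 ± 0.01 (SD, n = 3) was called above 100 (limma adjusted p = 0.00272), a call that depends on the SD of 0.01 for a signal 1.09 times the limit. When probesets with equal pairs also took the spread of others, the adjusted p was 1, and when only those with 3 equal values did, which leaves Egln2 its own variance but changes the moderation, it was 0.142. After quantile normalization it was 0.0515, and without replicate 2 or 3 it was 0.0573 and 0.0971.

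Vhl, the subunit that recognises hydroxylated HIF, was below the limit, at 6.24, 6.32 and 6.24 on the log2 scale. These are signals of 75.6, 79.7 and 75.6, not far under 100. The mean was 6.27 ± 0.04 (SD, n = 3; limma adjusted p = 0.00202), and with the spread of probesets with 3 different values the adjusted p was 0.141.

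Hif1an, the asparaginyl hydroxylase, gave log2 signals of 5.24, 5.77 and 5.24 in the 3 samples. Its signals were 37.9, 54.6 and 37.9, and replicate 2 stood 0.53 above the equal pair. The mean was 5.42 ± 0.30 (SD, n = 3), below 100 (limma adjusted p = 0.0101). The call was lost without replicate 1 (adjusted p = 0.0739) or replicate 3 (0.105).

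With other limits and other spreads the counts among the 10 genes changed. At a limit of 50, 8 were above and 1 below (51.3% and 40.5% of all genes), and at a limit of 200, 2 were above and 6 below (9.37% and 80.6%). With 3 equal values given the spread of other probesets, 4 were above and 4 below (19.3% and 61.6%), and with equal pairs treated the same way, 3 and 2 (15.2% and 52.8%). Without replicate 1, 2 or 3, the number above was 4, 2 and 1 (16.7%, 17.1% and 16.8% of all genes) and the number below 3, 4 and 3 (62.6%, 62.4% and 62.2%). Counted by 100 or more in each sample, without a test, 6 were above and 4 below (28.0% and 66.8%). Epas1 was above and Hif3a below in every one of these counts. Hif3a held 3 equal values, so leaving out a sample could not move its mean, and Epas1 held an equal pair.

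Between samples, the genes did not move together. Arnt and Egln3 were lowest in replicate 3, Hif1a and Egln2 were lowest in replicate 1, Egln1 was highest in replicate 1, Vhl and Hif1an were highest in replicate 2, and Epas1 was highest in replicate 3 by 0.02. In replicate 3 the median deviation of the endothelial markers from their own means was -0.17 on the log2 scale and that of the mural markers was 0.55. Of the 12 endothelial markers, 8 were lowest in replicate 3 alone and 1 was highest there, Tie1 at 8.20, 8.06 and 8.24. Kdr, the VEGF receptor of endothelium, had 9.72, 9.70 and 8.79, and Ehd3 had 8.07, 7.44 and 6.62. Both had larger ranges than the other endothelial markers. The study describes Ehd3 as previously known from glomerular but not other kidney endothelium. Myh11, the myosin of smooth muscle, had 7.79, 8.14 and 9.44. Whether the lower Arnt and Egln3 of replicate 3 belonged to this difference was not tested. Of the 6127 genes with a mean signal of at least 100, replicate 3 alone was lowest for 24.9%, replicate 2 for 19.1% and replicate 1 for 12.6%. Among the 10 genes, 6 had such a mean, and 2 of them were lowest in replicate 3 alone. Cdh5 and Erg, in contrast to Kdr, differed between the samples by less than 0.01. Erg held 3 equal values and Cdh5 an equal pair, which may understate their spread.

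**Figure D2:**
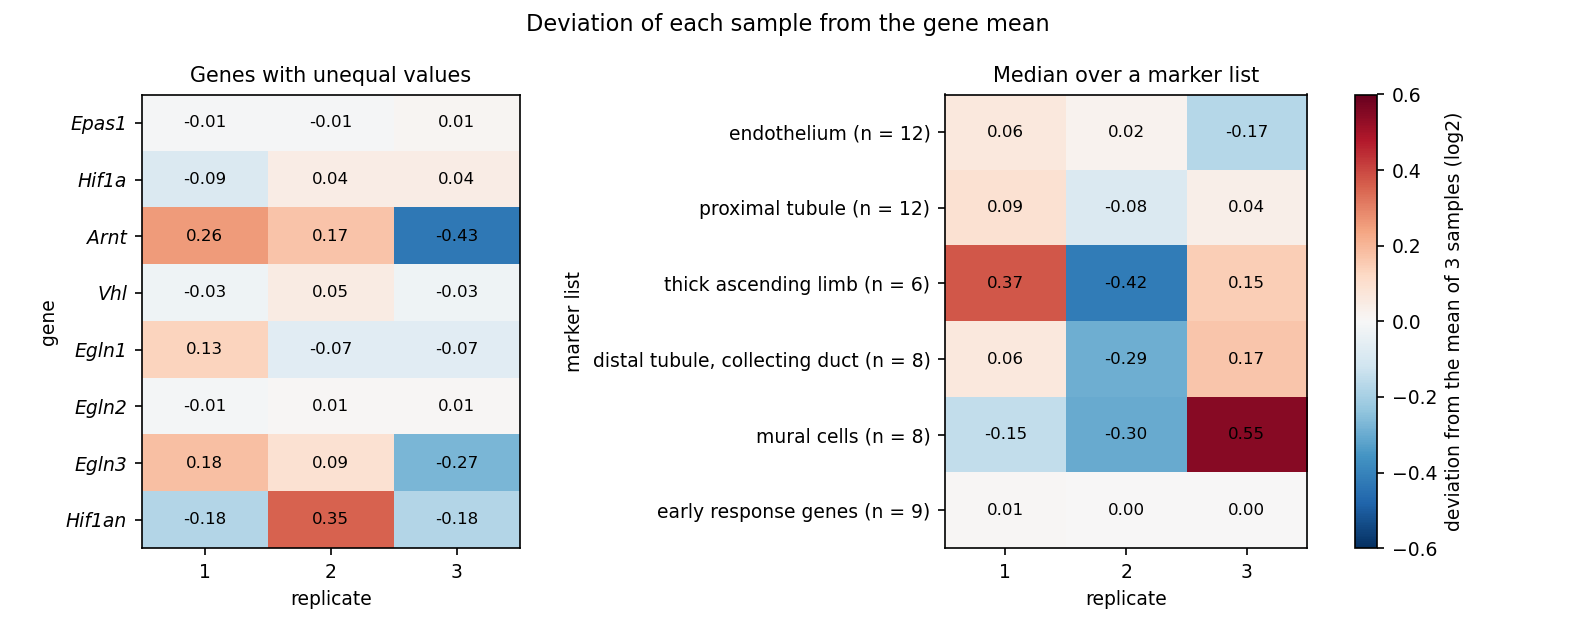
Deviation of each replicate (x axis) from the mean of the 3 samples on the log2 scale, for the 8 genes whose values were not all equal (left) and as the median over lists of marker genes (right, n is the number of measured genes). Replicate 3 is low for Arnt (-0.43) and Egln3 (-0.27) and high for mural markers (0.55), and Epas1 stays within 0.01 in every sample.

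The other subunits of the Vhl ligase were measured beside Vhl, and all 4 were above 100, beside 22.9% of all genes. Elob had log2 signals of 9.21, 8.36 and 8.63 (mean 8.74 ± 0.44, SD, n = 3; limma adjusted p = 0.0218) and Eloc, which joins it to Vhl, had 10.01, 9.84 and 9.82 (adjusted p = 0.000587). Rbx1, the RING subunit, had 9.82, 9.51 and 10.06 (adjusted p = 0.00408). Cul2, the scaffold of the ligase, was close to the limit at 6.71, 6.74 and 6.74 (adjusted p = 0.0252), and when equal pairs took the spread of other probesets it was neither above nor below (adjusted p = 1). These subunits also serve other complexes. The count above fell to 2 without replicate 1 or replicate 2 and to 1 without replicate 3. Of all genes, 16.7%, 17.1% and 16.8% were above without replicates 1, 2 and 3. The same shares apply to the left-out counts of the lists below.

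Coactivators of HIF and their competitors were above 100 for 5 of 6 genes, beside 22.9% of all genes. The histone acetyltransferases Ep300 and Crebbp had log2 signals of 8.39 and 8.84 in each sample (adjusted p = 1.68e-06 for both from limma). Cited2, which competes with HIF for these and is itself induced by hypoxia, had 8.01, 7.52 and 7.95 (adjusted p = 0.0254). The nuclear receptor coactivators Ncoa1 and Ncoa3 had means of 7.00 ± 0.10 and 8.43 ± 0.36 (SD, n = 3; limma adjusted p of 0.0358 and 0.0209). Cited4, a relative of Cited2, was the gene below, at 6.26 ± 0.09 (SD, n = 3; adjusted p = 0.00771). Ncoa1 and Cited4 lost their calls where equal pairs took the spread of other probesets (limma adjusted p of 0.217 and 0.0683). Without replicate 1 the coactivators above numbered 2, and without replicate 2 or replicate 3 they numbered 3.

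Of 9 measured genes that act on the stability of HIF or its hydroxylases, 4 were above 100, 3 were below and 2 were neither, beside 22.9% above and 65.0% below over all genes. Siah1a, a ubiquitin ligase that degrades prolyl hydroxylases, was above at 8.86, 9.24 and 9.24 (limma adjusted p = 0.00424). Its relative Siah2 was below, with 6.10 in each (limma adjusted p = 1.87e-08, from 3 equal values). The call of Siah2 was lost with the spread of probesets with 3 different values (adjusted p = 0.0748). Os9, Usp33 and Gsk3b were the others above, and Senp1 and Usp20 the others below. The call of Senp1 was lost with the spread of other probesets (adjusted p = 0.248). Fbxw7, a ubiquitin ligase subunit, was called neither, with log2 signals of 10.04, 8.80 and 7.97 in replicates 1, 2 and 3 (adjusted p = 0.0981). Wsb1 was also neither, with 7.25, 7.25 and 6.36. Without replicate 2 the number above was 2.

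Other transcription factors of the bHLH-PAS family, to which the HIF subunits belong, divided much as all genes did, with 66.7% below (6 of 9) and 22.2% above (2 of 9), beside 65.0% and 22.9%. Ahr, the dioxin receptor that also pairs with Arnt, was above at 7.92 in each sample (limma adjusted p = 1.68e-06), as was the circadian factor Clock at 8.46 ± 0.14 (SD, n = 3; adjusted p = 0.00335). Ahrr, the repressor of Ahr, had 4.70 in each sample, and Sim1 and Sim2, factors of the nervous system, had 5.37 and 5.10. Arntl (Bmal1), the partner of Clock, was neither, at 7.36, 7.40 and 5.94. It was lowest in replicate 3, as were 24.9% of the 6127 genes with a mean signal of at least 100. The number above was 1 without replicate 1 or replicate 2.

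Among 15 other oxygen-dependent dioxygenases, 5 were above 100 (33.3%), 4 below (26.7%) and 6 neither, beside 22.9% above and 65.0% below over all genes. P4htm, a transmembrane prolyl hydroxylase that can act on HIF, was below at 5.51 in each sample (limma adjusted p = 1.13e-09). The collagen prolyl hydroxylase P4ha2 was above at 7.90, 7.54 and 7.31 (adjusted p = 0.0484), and P4ha1 was neither, at 7.49, 8.08 and 7.02 (adjusted p = 0.162). P4ha3 had 5.07 in each sample and was below. The histone demethylases Kdm3a, Kdm4c and Kdm5a and the thiol dioxygenase Ado were the others above, and Kdm4b and Kdm5c the others below. With the spread of other probesets the calls of Kdm3a, Ado and Kdm5c were lost. That of Kdm4c was lost where equal pairs took this spread as well (limma adjusted p = 0.18). The DNA demethylases Tet1, Tet2 and Tet3 were neither. Tet1, at 7.20, 7.55 and 7.81, had a limma adjusted p of 0.0593 above 100, and of 0.0334 where probesets with 3 equal values took the spread of others. Without replicate 2 or replicate 3, the number above was 3.

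Known target genes of HIF were examined as 3 lists, which share genes with the pathways of glycolysis and VEGF signaling. Of 48 measured targets, 23 were above 100, 21 were below and 4 were neither. The shares, 47.9% above and 43.8% below, stood beside 22.9% and 65.0% over all genes, and 21 of the 48 had 3 equal values. A target's level in 1 group shows only on which side of 100 the signal of its probeset lay, and induction was not measured.

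**Figure D3:**
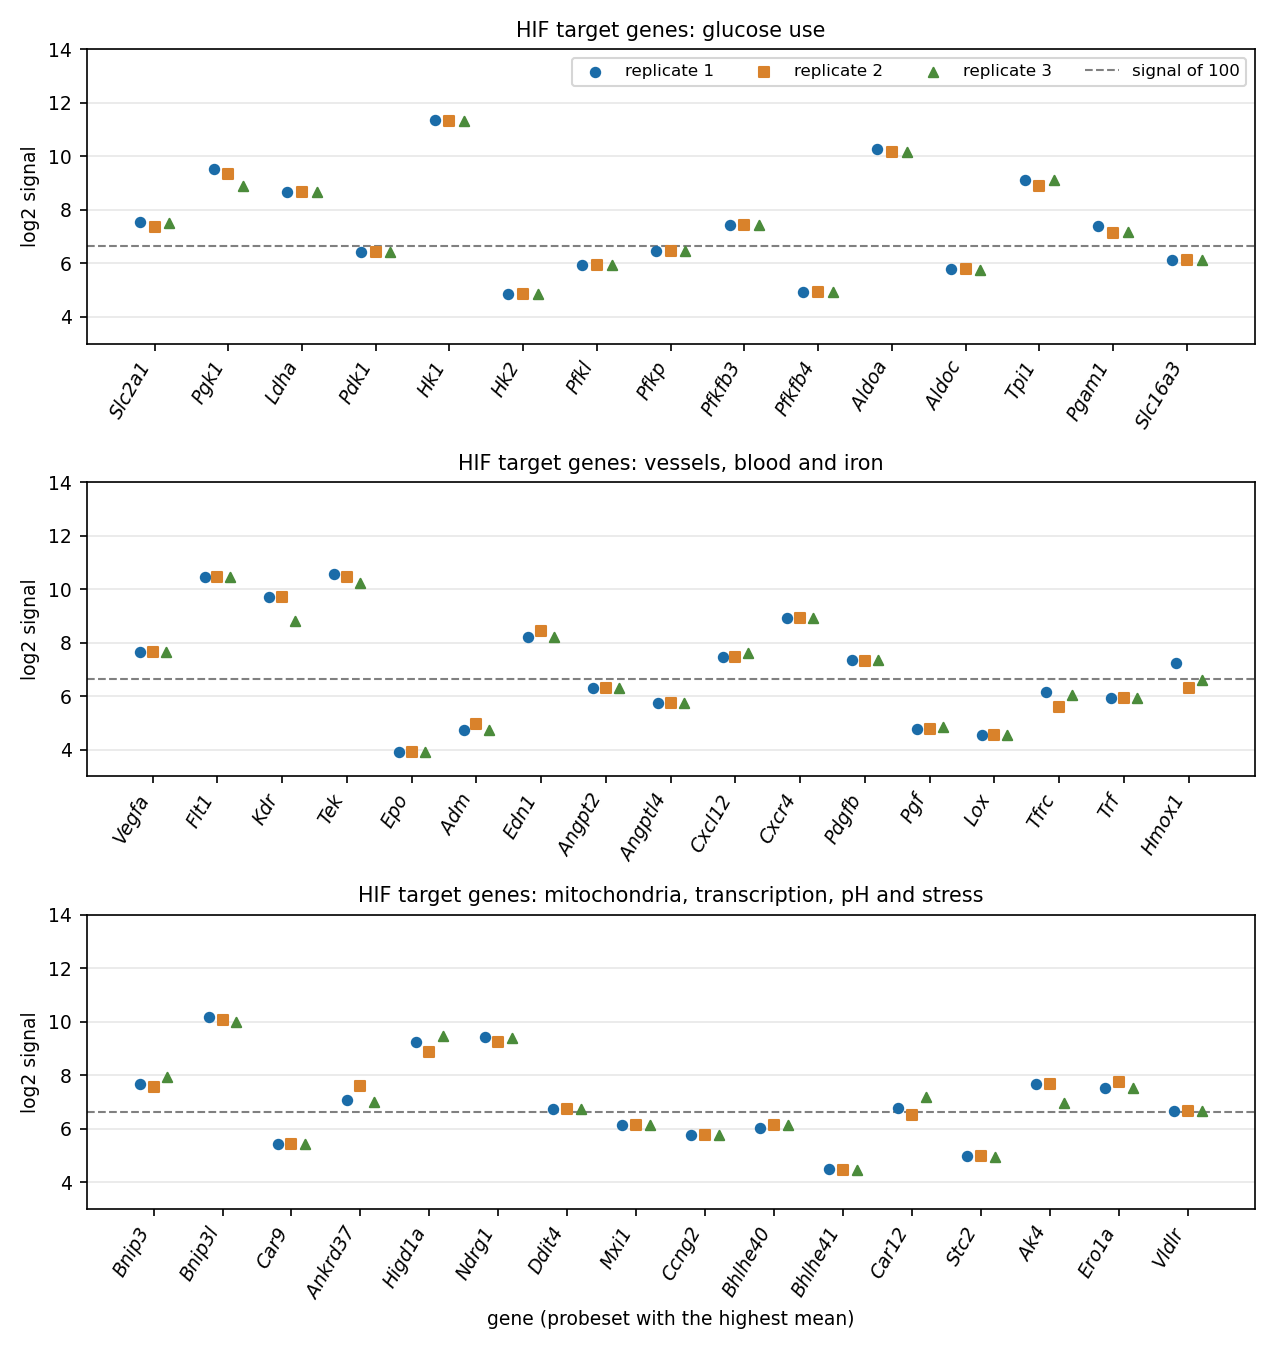
Log2 signal (y axis) of 48 HIF target genes (x axis) in the 3 samples, in panels for glucose use, for vessels, blood and iron, and for mitochondria, transcription, pH and stress, with a dashed line at a signal of 100. Each panel holds genes on both sides of the line, such as Hk1 and Hk2, Flt1 and Epo, and Bnip3l and Car9.

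In glucose use, 8 of 15 targets were above 100 and 7 were below, beside 22.9% and 65.0% of all genes. Slc2a1, the glucose transporter of endothelium, had log2 signals of 7.56, 7.36 and 7.53 (limma adjusted p = 0.00835). Pgk1, a glycolytic kinase, had 9.53, 9.32 and 8.88 (adjusted p = 0.00838), and Ldha, which makes lactate, had 8.67 in each sample (adjusted p = 1.68e-06). Isoforms of one enzyme fell on both sides, each taken at its probeset with the highest mean. Hk1 had 11.34 ± 0.02 (SD, n = 3) and Hk2, the hexokinase isoform that HIF induces, had 4.87 in each sample (adjusted p = 3.54e-10 below), while Aldoa was above at 10.19 ± 0.07 and Aldoc below at 5.78 ± 0.01. Likewise Pfkfb3 was above at 7.42 in each sample, a call that was lost with the spread of other probesets, and Pfkfb4 was below at 4.93. Pdk1, which holds pyruvate back from mitochondria, had 6.44 in each sample and was called below, but not with the spread of other probesets. The number above was 4 without replicate 3, and 7 when the probeset with the lowest mean stood for each gene.

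Among 17 targets of vessels, blood and iron, 8 were above, 8 were below and 1 was neither. Of all genes, 22.9% were above and 65.0% below. Vegfa had 7.65 in each sample (limma adjusted p = 1.68e-06), its receptor Flt1 had 10.47 in each (adjusted p = 1.68e-06), Kdr had 9.41 ± 0.53 (SD, n = 3; adjusted p = 0.0187) and Tek, the gene whose promoter drives the reporter, had 10.41 ± 0.16 (adjusted p = 0.000969). Edn1, the gene of endothelin, was above at 8.21, 8.43 and 8.21. The chemokine receptor Cxcr4 was above at 8.93 in each sample, and its ligand Cxcl12 at 7.51 ± 0.07. The p-value of Vegfa comes from 3 equal values. Vegfa and Cxcl12 were no longer above with the spread of probesets with 3 different values (limma adjusted p of 0.0557 and 0.0623). Epo, the hormone of red cell production made by interstitial cells, was below, with 3.90 in each (adjusted p = 3.54e-10). Adm, the vasodilator peptide that hypoxia induces in endothelium, was below at 4.74, 4.96 and 4.74 (adjusted p = 0.000696), as were Angptl4 and Lox, at 5.74 and 4.56 in each sample. Hmox1, the heme oxygenase, was neither, at 7.22, 6.30 and 6.62. The number above was 5 without replicate 1.

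Targets of mitochondria, transcription, pH and stress were above 100 for 7 of 16 genes, below for 6 and neither for 3. These counts stand beside 22.9% above and 65.0% below over all genes. Bnip3 and Bnip3l, which start the removal of mitochondria, were above, with log2 signals of 7.68, 7.56 and 7.93 for Bnip3 (limma adjusted p = 0.0155) and 10.18, 10.07 and 9.99 for Bnip3l (adjusted p = 0.000399). Car9, the carbonic anhydrase often used as a marker of hypoxia, was below, with 5.44 in each (adjusted p = 9.08e-10). Ankrd37 had 7.10, 7.59 and 7.01 and was neither (adjusted p = 0.13), as were Ak4 and Car12. Ndrg1 was above at 9.37 ± 0.09 (SD, n = 3), and Higd1a, a mitochondrial protein, at 9.24, 8.88 and 9.49. Ddit4, an inhibitor of mTOR, and Vldlr, a lipoprotein receptor, were called above at 6.75 and 6.68, which are signals of 108 and 102, and neither call held with the spread of other probesets. Without replicate 1 or replicate 3 the number above was 4.

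**Figure D4:**
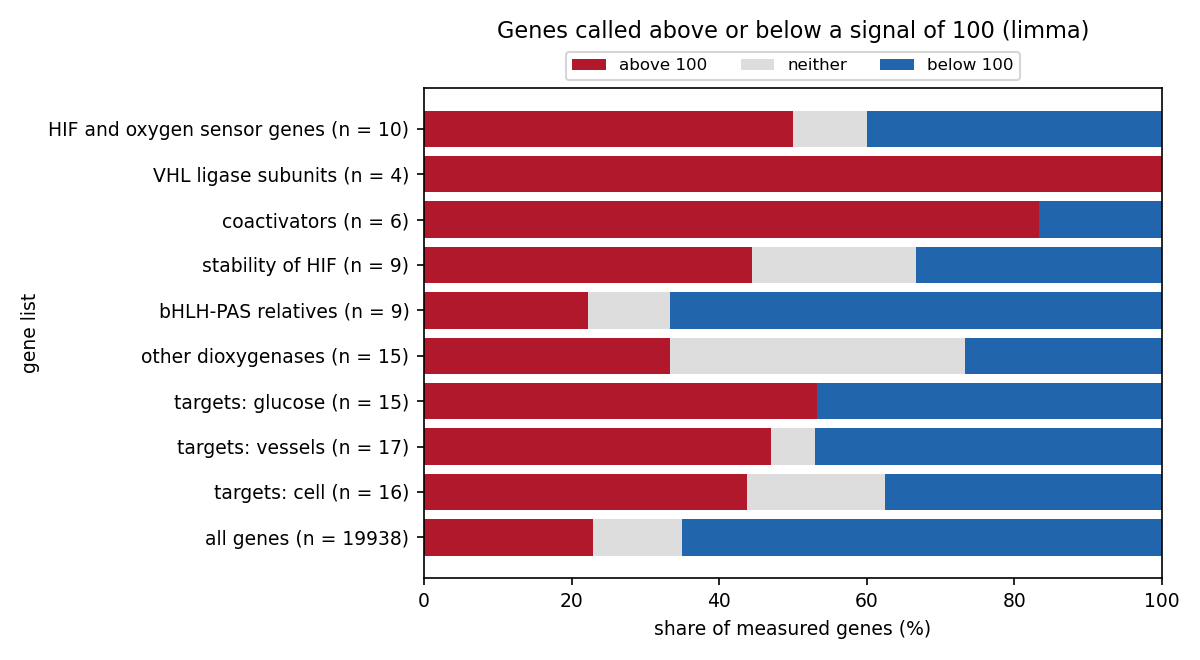
Share of measured genes (x axis, percent) called above a signal of 100 (red), below it (blue) or neither (grey) by limma in each gene list (y axis, n is the number of measured genes). The 10 HIF and oxygen sensor genes divide into 5 above, 4 below and 1 neither, and all genes into 22.9% above and 65.0% below.

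Early response genes of cell dissociation were measured in the same samples. Of 9 genes, 66.7% were below 100 and 33.3% above, beside 65.0% and 22.9% of all genes. The 6 below included Fos, Fosb and Egr1 with a mean log2 signal of 5.89, 5.96 and 6.13, and the 3 above were Jun at 8.67, Dusp1 at 8.65 and Zfp36 at 6.73. Zfp36 was not above with the spread of other probesets. Egr1 was not below where equal pairs took this spread as well (limma adjusted p = 0.0929).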

How the data were processed

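RNA of each sample was amplified in 1 round and hybridized to Affymetrix Mouse Gene 1.0 ST arrays. The deposited table holds log2 signals, a column for each sample, which the authors summarised per probeset and normalized between arrays. The study names RMA in GeneSpring GX, and the submitters' processing notes name Affymetrix Expression Console. The version of the latter, and which arrays were normalized together, is not given in the sources used here. Values were given for 35557 probesets, with 0 missing. By the probe annotation 21789 probesets had 1 gene, 1621 several and 12147 none, and 21698 of the first matched the RefSeq gene table.

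Where a gene had more than 1 probeset, the one with the highest mean stood for it, and only probesets of 1 gene were named. Genes were assigned by the probe annotation, and the genomic place of the probes was not checked. limma 3.58.1 in R 4.3.3 fitted an intercept to each probeset's distance from 100 on the log2 scale, with a variance trend, 2 residual and 0.297 prior degrees of freedom, and Benjamini-Hochberg adjustment over all probesets. The test was tried on simulated data first, with spreads drawn only from probesets whose values were not all equal. That trial therefore does not cover probesets with 3 equal values. Python 3.11.15 with pandas 2.3.3, numpy 2.4.6 and matplotlib 3.10.9 was used for counts and figures.

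The 10 genes, 8 pathway lists of 100 genes, of which 91 were measured, and the marker lists were chosen with earlier results of these data known. The other list genes were not analysed here. Named are all 10 genes, the first 4 measured genes of each pathway list, the genes behind a count of at most 5 called in a pathway list, and others chosen after their values were seen. Alternatives were limits of 50 and 200, quantile normalization, no variance trend, columns shifted to a common median, the lowest 25% of probesets left out, another probeset or the mean of a gene's probesets, a call by 100 in each sample, leaving out each replicate, and giving probesets with 3 equal values the median variance of the 201 nearest others by mean, with the moderation then estimated on the others. The same for probesets with 2 equal values was added after seeing the data.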

Additional observations from a re-analysis of the deposited data

How the results depend on the processing

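No paired analysis was possible because the samples form 1 group. Over the 10 genes and the alternatives, 115 values kept their direction and side of the threshold, 17 lost the call, 2 gained one and 6 changed sign. Sign changes came only with another limit: against 200, Arnt, Egln1, Egln2 and Egln3 lay at -0.32, -0.32, -0.87 and -0.0865 on the log2 scale, and against 50, Arnt2 and Vhl lay at 0.53 and 0.62. Arnt was above a limit of 50 (adjusted p = 0.0122 from limma) and at 100 or more in each sample. Hif1an was not below 50 (adjusted p = 0.316).

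Of the 10 genes, 8 were above a limit of 50 and 1 below, and 2 were above 200 (51.3%, 40.5% and 9.37% of all genes). With probesets of 2 or 3 equal values given the spread of the others, 3 were above and 2 below (15.2% and 52.8% of all genes). Leaving out 1 sample gave 1 to 4 above, beside 16.7% to 17.1% of all genes. The value of 1 came without replicate 3. Each of these fits had 1 residual degree of freedom.

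With a limit of 50, the number above was 8 for stability genes, 11 for dioxygenases, 13 for glucose targets and 13 for the targets of mitochondria, transcription, pH and stress (cell targets). The number below was then 0 for coactivators, 0 for stability genes, 2 for glucose targets, 4 for vessel targets and 3 for cell targets. Of all genes, 51.3% were above and 40.5% below that limit. With a limit of 200, the number above was 2 for Vhl ligase subunits, 2 for coactivators, 1 for dioxygenases, 5 for glucose targets, 5 for vessel targets and 3 for cell targets, and the number below was 1 for ligase subunits, 2 for coactivators and 11 for dioxygenases. Of all genes, 9.37% were above and 80.6% below a limit of 200. With equal pairs treated as well, 3 dioxygenases, 5 vessel targets and 4 cell targets were above, and 0 coactivators, 1 stability gene and 4 glucose targets were below. Of all genes, 15.2% were above and 52.8% below in that setting. By 100 in each sample 8 dioxygenases were above, beside 28.0% of all genes. Leaving out 1 sample gave 1 to 2 ligase subunits, 2 to 3 coactivators, 2 to 4 stability genes, 1 to 3 bHLH-PAS genes, 3 to 4 dioxygenases, 4 to 6 glucose targets, 5 to 7 vessel targets and 4 to 6 cell targets above, and 0 to 1 coactivators below. Of all genes, 16.7% to 17.1% were above and 62.2% to 62.6% below when 1 sample was left out. The other 203 counts stayed within 1.5 times the main count. The cause of these changes was not tested beyond the limit, the spread and the samples named.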
